A study of Mus musculus with 22 samples.

Results

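The genes described here are 10 AP-1 factors and immediate early genes: the Fos family members Fos, Fosb, Fosl1 and Fosl2, the Jun family members Jun, Junb and Jund, and the immediate early genes Egr1, Ier2 and Ier3. They were chosen by gene symbol among probe sets annotated with 1 symbol, and where a gene had several probe sets the brightest on average over the 22 arrays stands for it. All 10 were found among the 18193 genes measured. AP-1 is a dimer of a Jun protein with a Fos, ATF or Maf protein, or with another Jun protein. Immediate early genes are transcribed within minutes of a stimulus without new protein synthesis, and Fos and Egr1 are textbook readouts of growth factor signalling through MEK and ERK, which acts on ternary complex factors bound with SRF. The co-activators YAP and TAZ act with TEAD factors, and in several cancer cell lines AP-1 occupies many of the same enhancers.

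Expression was measured on Affymetrix arrays in Rex1GFPd2 mouse embryonic stem (ES) cells, a single line kept in serum-free medium. PD-only medium with YAP/TAZ siRNA gave 8 arrays, 4 with siYAP/TAZ#1 and 4 with siYAP/TAZ#2. Control siRNA cells in PD-only medium gave 7 arrays, 4 with siControl#1 and 3 with siControl#2, and control siRNA cells in 2i medium also gave 7, divided in the same way. All cells received PD0325901, a MEK inhibitor, throughout: 2i medium holds it together with CHIR99021 (CHIR), which inhibits GSK3, and PD-only medium lacks CHIR. The PD-only cells were changed to that medium 24 hours after transfection, and all cells were harvested 72 hours after transfection. A change of medium is given for the PD-only cells alone, so its own effect cannot be told apart from the loss of CHIR. By its title, the series concerns YAP and TAZ as parts of the beta-catenin destruction complex in the cytoplasm; GSK3 is a kinase of that complex. The comparisons ask how expression differs without and with CHIR, and with and without siRNA against YAP and TAZ. YAP/TAZ siRNA cells in 2i were not analysed here.

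Differences between arms, which average both siRNAs of an arm with equal weight, were tested with limma over all genes, and a gene was called where its p, adjusted by Benjamini and Hochberg's method, was at most 0.05. Levels are RMA log2 values, where a step of 1 is 2-fold. The siRNAs lowered their targets, with Yap1 at 41.4% and Wwtr1 at 48.7% of the PD-only control level. ES cell markers were at high levels in all arms, with a mean log2 level over 12 markers of 11.95 to 11.98 on the YAP/TAZ siRNA arrays, 11.56 to 11.60 on the PD-only control arrays and 12.04 to 12.10 on the 2i control arrays. Arrays of 1 arm correlated at 0.9977 or above. The labels call the samples biological replicates without naming separate days or passages, so p-values measure the spread between these samples.

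On their chosen probe sets, the 6 genes Fos, Fosl2, Jun, Junb, Jund and Ier3 stood high in PD-only control cells alone. They were lower with YAP/TAZ siRNA in the same medium, by 1.94-fold for Jund to 11.5-fold for Fos, and they were higher in PD-only control than in 2i control cells, by 2.19-fold for Jund to 12.1-fold for Fos. Fosl2 moved in the same directions, by a size that differed widely between its 2 probe sets and is left out of these ranges. A second, dim Jund probe set went the opposite way, with log2 differences of 0.24 and -0.13, the latter not called. Egr1 moved by less than 1.5-fold in each comparison. Fosb, Fosl1 and Ier2 had no difference above 1.2-fold between arms. These comparisons share the PD-only control arrays, so a high value there enters both with opposite sign. RNA was taken from whole cultures, in which fewer cells expressing a gene and less of its RNA per cell cannot be told apart.

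**Figure D1:**
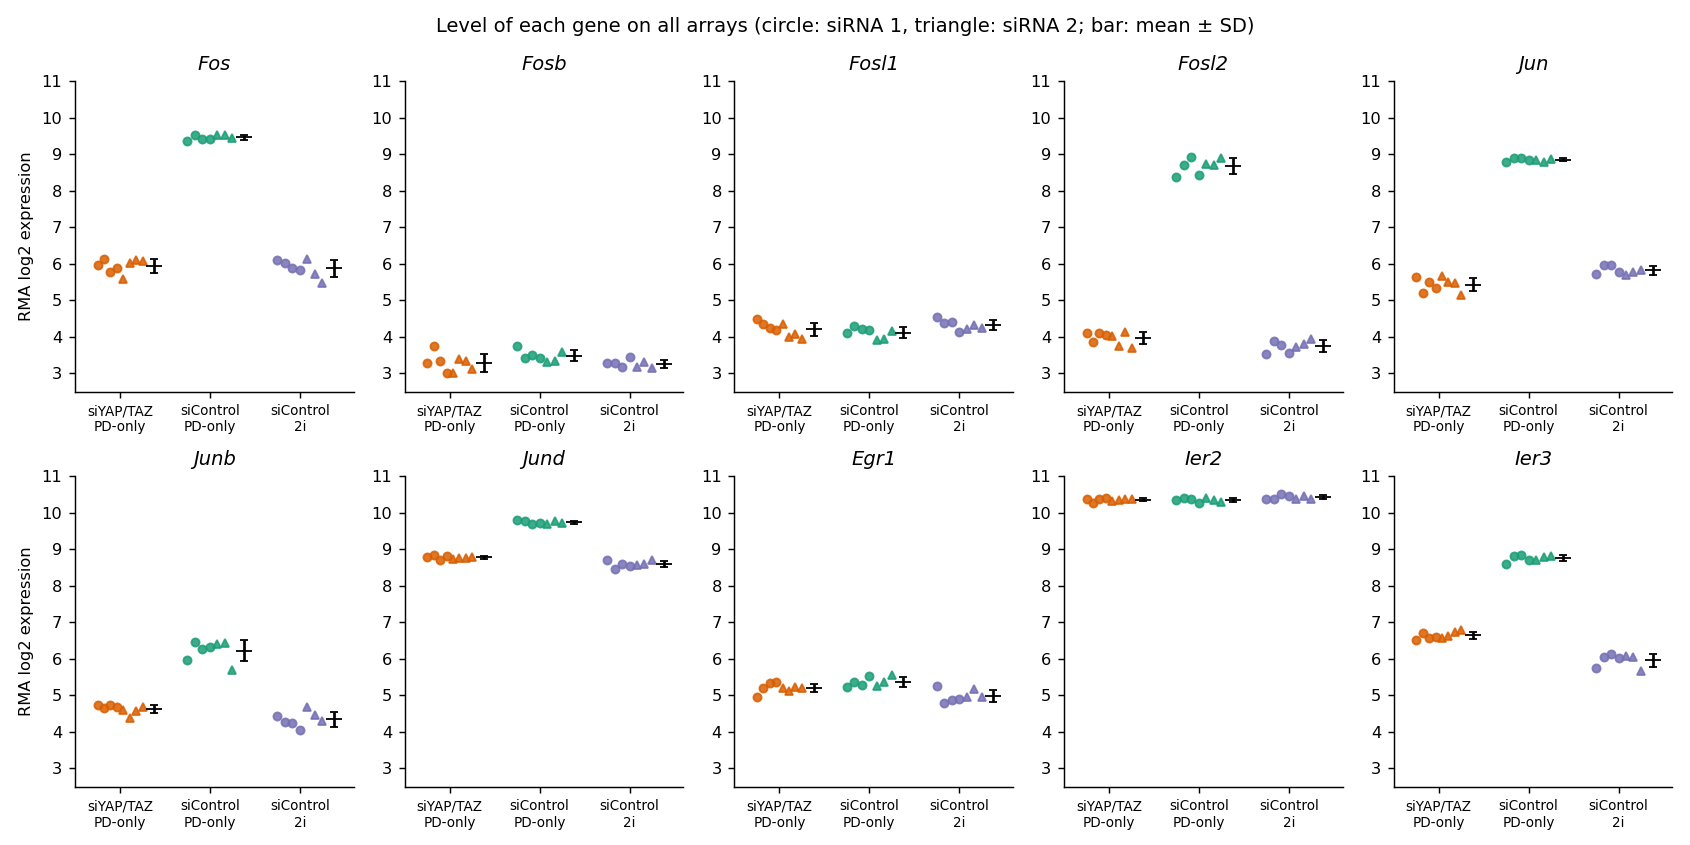
RMA log2 level (vertical axis) of each of the 10 genes on all 22 arrays, by arm. Circles are arrays with the siRNA numbered 1, triangles arrays with the siRNA numbered 2, and bars the mean ± SD; for Fos the PD-only control arrays sit between 9.35 and 9.53, above every array of the other arms.

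The promoters of Fos, Jun and Junb are shown because these genes differed between arms and their windows hold one of the motifs searched. The sequences are the 250 bases before the annotated start, 5′ to 3′ on the gene's strand, from RefSeq (GRCm38.p6): chr12:85473640-85473889 on the plus strand for Fos, chr4:95052223-95052472 on the minus strand for Jun and chr8:84978749-84978998 on the minus strand for Junb. Capitals mark the motif matches.
Fos: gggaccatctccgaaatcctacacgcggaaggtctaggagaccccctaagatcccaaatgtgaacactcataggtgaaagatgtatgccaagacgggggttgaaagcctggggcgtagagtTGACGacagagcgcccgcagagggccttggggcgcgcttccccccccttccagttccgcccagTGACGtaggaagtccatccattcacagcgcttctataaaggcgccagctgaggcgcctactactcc
Jun: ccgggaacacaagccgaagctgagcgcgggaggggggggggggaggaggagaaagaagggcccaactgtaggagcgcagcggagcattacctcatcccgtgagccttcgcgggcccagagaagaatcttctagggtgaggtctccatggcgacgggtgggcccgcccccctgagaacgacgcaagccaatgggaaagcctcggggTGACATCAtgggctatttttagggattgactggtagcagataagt
Junb: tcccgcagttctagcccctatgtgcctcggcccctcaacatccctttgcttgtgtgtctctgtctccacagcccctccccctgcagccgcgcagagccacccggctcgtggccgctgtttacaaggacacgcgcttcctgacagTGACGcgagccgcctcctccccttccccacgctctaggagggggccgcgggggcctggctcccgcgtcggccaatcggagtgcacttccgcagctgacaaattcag

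Windows of 300 bases, 250 before and 50 after the start, were matched by symbol for 7 of the 10 genes, Fos, Fosb, Fosl2, Jun, Junb, Jund and Ier3. Both strands were searched. The letters TGACG, shared by sites for CREB and ATF proteins, began at positions -129 and -66 in Fos, at -60 in Fosb and at -106 in Junb, counted from the start. They were in 3 of the 7 windows and in 20.8% of 32851 windows of this length. The 8-base site TGACNTCA, which Jun-ATF dimers bind and which includes TGACG where N is G, was found in Jun alone, at position -45, against 8.83% of all windows. The AP-1 site TGANTCA (7.81% of all windows), the TEAD site GGAATG (14.7%) and the CArG box bound by SRF (1.63%) were in none of the 7 windows. A match describes letters, and its absence says that they are not in this window.

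Fos, whose protein dimerises with Jun proteins, had a log2 level of 5.57 at the lowest, 5.99 at the median and 6.14 at the highest on the YAP/TAZ siRNA arrays, of 9.35, 9.43 and 9.53 on the PD-only control arrays, and of 5.47, 5.88 and 6.12 on the 2i control arrays. Every PD-only control array was above every other array, and the YAP/TAZ siRNA and 2i control arrays overlapped. Fos fell by 3.52 ± 0.09 on the log2 scale with YAP/TAZ siRNA against PD-only control (SE; limma's adjusted p 4.75e-18), an 11.5-fold difference. It was 12.1-fold higher in PD-only control than in 2i control cells (log2 3.60 ± 0.09, adjusted p 6.96e-18). Between YAP/TAZ siRNA and 2i control the difference was 0.07 ± 0.09 (adjusted p 0.547), with a 95% interval of -0.11 to 0.26. With the Actb 3′ to 5′ difference described further on as a covariate, the first 2 of these differences were -3.09 and 3.18.

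Fosl2, which encodes Fra-2, was measured by 2 probe sets that differed in size of change. The one with the higher mean over all arrays (5.39 against 5.30) has it only through the PD-only control arrays, where it is bright; in the other arms it is the dimmer one, below the lower quartile of gene means of 4.62, and is not shown to be above background there. Its log2 level was 3.69, 4.03 and 4.14 (lowest, median and highest) on the YAP/TAZ siRNA arrays, 8.38, 8.70 and 8.93 on the PD-only control arrays, and 3.53, 3.78 and 3.94 on the 2i control arrays. The PD-only control arrays lay more than 4 log2 units above all others, which overlapped. The difference was -4.73 ± 0.09 for YAP/TAZ siRNA against PD-only control (limma's adjusted p 2.32e-20) and 4.94 ± 0.09 for PD-only control against 2i control (adjusted p 2.34e-20). Both set a bright arm against dim values, so they describe this probe set and are not a measured fold of the transcript. YAP/TAZ siRNA and 2i control differed by 0.21 ± 0.09 (adjusted p 0.0546).

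The second probe set of Fosl2, the brighter one in YAP/TAZ siRNA and 2i control cells, moved in the same directions by far less. It averaged 5.17 ± 0.13 on the YAP/TAZ siRNA arrays, 5.61 ± 0.20 on the PD-only control arrays and 5.16 ± 0.21 on the 2i control arrays (SD, n = 8, 7 and 7). Its differences were -0.46 ± 0.09 (limma's adjusted p 0.000114) for YAP/TAZ siRNA against PD-only control and 0.46 ± 0.09 (0.000165) for PD-only control against 2i control. The mean over both probe sets of Fosl2 gave -2.59 and 2.70, smaller in size than the differences of Fos and Jun. The size of the Fosl2 differences therefore depends on the probe set, and their direction did not.

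Fosb and Fosl1, which encodes Fra-1, were dim on all arrays. Fosb ranged over 3.0 to 3.74 on the YAP/TAZ siRNA arrays, 3.32 to 3.74 on the PD-only control arrays and 3.15 to 3.45 on the 2i control arrays, so all arms overlapped. Its differences were -0.19 ± 0.09 for YAP/TAZ siRNA against PD-only control (limma's adjusted p 0.0759) and 0.21 ± 0.09 for PD-only control against 2i control (0.0641). Fosl1 ranged over 3.93 to 4.48 on the YAP/TAZ siRNA arrays, 3.90 to 4.30 on the PD-only control arrays and 4.12 to 4.55 on the 2i control arrays. Fosl1 was lower in PD-only control than in 2i control cells by a log2 difference of -0.21 ± 0.07 (adjusted p 0.0151), while its second probe set gave 0.09 ± 0.06 (adjusted p 0.206) and the mean of both -0.06 (0.219). The lower quartile of gene means on these arrays was 4.62, RMA gives no detection call, and differences between dim values are compressed, so these values do not show that the dim genes are unexpressed or constant.

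Jun, the Jun family member that gave the family its name, had a log2 level of 5.13, 5.48 and 5.66 (lowest, median and highest) on the YAP/TAZ siRNA arrays, 8.79, 8.84 and 8.89 on the PD-only control arrays, and 5.68, 5.78 and 5.97 on the 2i control arrays. The PD-only control arrays were the highest, and the YAP/TAZ siRNA arrays all lay below the 2i control arrays, though narrowly. Jun fell by 3.41 ± 0.07 with YAP/TAZ siRNA against PD-only control (limma's adjusted p 1.26e-19), which is 10.7-fold. It was 8.17-fold higher in PD-only control than in 2i control cells (log2 3.03 ± 0.07, adjusted p 1.77e-18). Against 2i control, YAP/TAZ siRNA cells were lower by a log2 difference of -0.38 ± 0.07 (adjusted p 9.21e-05). A second Jun probe set gave -2.81 ± 0.07 and 2.75 ± 0.07 for the first 2 comparisons, but -0.07 ± 0.07 between YAP/TAZ siRNA and 2i control (adjusted p 0.485), so the call against 2i control rests on 1 of the 2 probe sets.

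Junb, which encodes a Jun protein of weaker transactivation than Jun, had a log2 level of 4.37, 4.66 and 4.75 (lowest, median and highest) on the YAP/TAZ siRNA arrays, 5.70, 6.33 and 6.46 on the PD-only control arrays, and 4.04, 4.30 and 4.69 on the 2i control arrays. Again every PD-only control array was above every other. Junb fell by 1.59 ± 0.10 with YAP/TAZ siRNA against PD-only control (limma's adjusted p 1.39e-11), or 3.02-fold, and was 3.62-fold higher in PD-only control than in 2i control cells (log2 1.86 ± 0.10, adjusted p 2.45e-12). The YAP/TAZ siRNA and 2i control arrays overlapped. Junb averaged 4.63 and 4.35 in these arms, near or below the lower quartile of gene means of 4.62. Both folds therefore set PD-only control against dim values and are not measured folds of the transcript.

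Jund, a Jun protein gene known for steady expression in many cell types, ranged over 8.71 to 8.85 on the YAP/TAZ siRNA arrays, 9.69 to 9.80 on the PD-only control arrays and 8.47 to 8.71 on the 2i control arrays. The PD-only control arrays were separate from both other arms, which met at 8.71. Jund fell by 0.96 ± 0.03 with YAP/TAZ siRNA against PD-only control (limma's adjusted p 1.45e-15) and was higher in PD-only control than in 2i control cells by 1.13 ± 0.04 (2.02e-16). A second, dim Jund probe set with a mean of 4.71 over all arrays did not do this: it gave 0.24 ± 0.07 (adjusted p 0.00972), the opposite direction, for YAP/TAZ siRNA against PD-only control and -0.13 ± 0.08 (0.172) for PD-only control against 2i control. The mean of both Jund probe sets gave -0.36 and 0.50.

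Ier3, also called IEX-1, an immediate early gene with roles in cell survival, was the gene outside AP-1 with the largest differences. Its log2 level was 6.52, 6.62 and 6.78 (lowest, median and highest) on the YAP/TAZ siRNA arrays, 8.61, 8.79 and 8.85 on the PD-only control arrays, and 5.66, 6.05 and 6.12 on the 2i control arrays. The 3 arms did not overlap, with YAP/TAZ siRNA cells between the others. Ier3 fell by 2.12 ± 0.06 with YAP/TAZ siRNA against PD-only control (limma's adjusted p 8.2e-17), or 4.35-fold. It was 6.99-fold higher in PD-only control than in 2i control cells (log2 2.80 ± 0.07, adjusted p 1.65e-18), and 1.61-fold higher with YAP/TAZ siRNA than in 2i control cells (log2 0.68 ± 0.06, adjusted p 1.59e-08).

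Egr1, a zinc finger transcription factor gene that SRF and ternary complex factors control downstream of ERK, ranged over 4.97 to 5.36 on the YAP/TAZ siRNA arrays, 5.22 to 5.57 on the PD-only control arrays and 4.80 to 5.27 on the 2i control arrays. Neighbouring arms overlapped throughout. Its log2 difference was 0.38 ± 0.08 for PD-only control against 2i control (limma's adjusted p 0.000229) and -0.17 ± 0.07 for YAP/TAZ siRNA against PD-only control (0.0494). The second of these calls was lost in 14 of the 22 fits that left out 1 array, with an adjusted p of 0.0529 to 0.150: without 2i control arrays of siControl#1 (C and D) or siControl#2 (A and C), PD-only control arrays of siControl#1 (B and D) or siControl#2 (B and C), or arrays of siYAP/TAZ#1 (A and B) or siYAP/TAZ#2 (A, B, C and D).

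Ier2, which encodes a nuclear protein induced by serum and growth factors, was bright in all arms, which overlapped. It ranged over 10.27 to 10.40 on the YAP/TAZ siRNA arrays, 10.28 to 10.41 on the PD-only control arrays and 10.37 to 10.50 on the 2i control arrays. The difference was 0.00 ± 0.03 for YAP/TAZ siRNA against PD-only control (limma's adjusted p 0.900, 95% interval -0.06 to 0.07) and -0.06 ± 0.03 for PD-only control against 2i control (0.0859 here, called in 3 of the alternative fits, interval -0.13 to 0.00). For Ier2 these intervals leave no room for a difference above 1.1-fold on this probe set.

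Counted over the set, 7 of the 10 genes were lower with YAP/TAZ siRNA than in PD-only control cells (Egr1, Fos, Fosl2, Ier3, Jun, Junb and Jund) and 0 were higher, where 26.3% of all genes were called lower and 35.5% higher. Of these, 5 differed by at least 2-fold (Fosl2 on its chosen probe set alone), against 4.47% of all genes called lower by that much. On the chosen probe sets, 6 were lower on every YAP/TAZ siRNA array than on any PD-only control array, against 19.3% of all genes. The second Jund probe set overlapped between these arms. The median log2 difference of the 10 genes was -1.28, and that of all genes 0.06. For PD-only control against 2i control, 7 genes were higher (Egr1, Fos, Fosl2, Ier3, Jun, Junb and Jund) and Fosl1 was lower, where 26.7% of all genes were called higher and 31.3% lower. There, 6 were at least 2-fold higher (Fosl2 and Jund on their chosen probe sets alone), against 4.12% of all genes. On the chosen probe sets, 6 were higher on every PD-only control array than on any 2i control array, against 19% of all genes. The second probe sets of Fosl2 and Jund overlapped between these arms. The median was 1.49 for the 10 genes and -0.04 for all genes. The 10 genes were chosen with earlier results of these data known. Their counts and medians beside those of all genes are therefore a description and no test.

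Between YAP/TAZ siRNA and 2i control cells 4 genes were higher (Egr1, Ier3, Junb and Jund) and Jun was lower, where 48.3% of all genes were called, 25.5% higher and 22.8% lower. These counts are near the shares of all genes. None of the 10 reached 2-fold, where 1.51% of all genes did, and Ier3 and Jun were the 2 genes whose arms did not overlap, against 28.3% of all genes. The largest of these differences was 0.68 for Ier3. The medians were 0.12 for the 10 genes and 0.015 for all genes. Junb differed by 0.26 ± 0.10 (limma's adjusted p 0.0351), Egr1 by 0.21 ± 0.07 (0.0250) and Jund by 0.17 ± 0.03 (0.00028). The count of 5 became 3 without replicate C of siYAP/TAZ#1, where Egr1 had an adjusted p of 0.0529 and Junb of 0.0572.

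**Figure D2:**
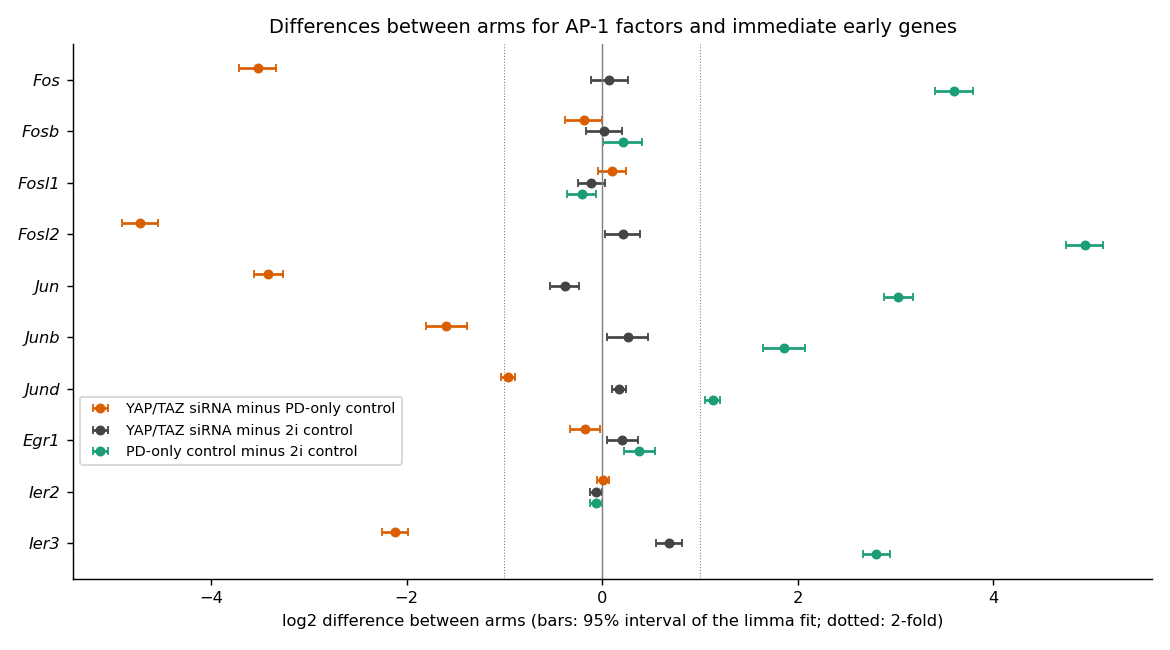
Log2 difference (horizontal axis) of each gene for YAP/TAZ siRNA minus PD-only control, YAP/TAZ siRNA minus 2i control and PD-only control minus 2i control; points are limma estimates, bars their 95% intervals and dotted lines mark 2-fold. The chosen probe set of Fosl2 sits at -4.73 and 4.94 (its second gave -0.46 and 0.46), and the YAP/TAZ siRNA minus 2i control points lie between -0.38 and 0.68.

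Each siRNA of a kind gave alike values for the genes that moved. Against all PD-only controls, Fosl2 differed by -4.67 ± 0.11 with siYAP/TAZ#1 and by -4.79 ± 0.11 with siYAP/TAZ#2, Jun by -3.42 ± 0.08 and -3.40 ± 0.08, and Fos by -3.52 ± 0.11 with each (SE). For PD-only against 2i, Junb differed by 2.02 ± 0.14 with siControl#1 and by 1.69 ± 0.16 with siControl#2, the widest gap among the 10 genes at -0.33 ± 0.21 (siControl#2 minus siControl#1, limma's adjusted p 0.983). Over all 18193 genes, limma called 0 in each of the 4 contrasts between siRNAs of 1 kind. An unadjusted p under 0.05 was reached by 648 genes for the YAP/TAZ siRNAs and 949 for the control siRNAs in the medium difference. For the control siRNAs it was reached by 769 genes within PD-only medium and 1450 within 2i medium. The 1450 are above the share of 0.05 that chance gives. Of the 10 genes, Fosl1 alone reached that unadjusted level in any of the 4, with -0.23 ± 0.09 for siYAP/TAZ#2 minus siYAP/TAZ#1.

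**Figure D3:**
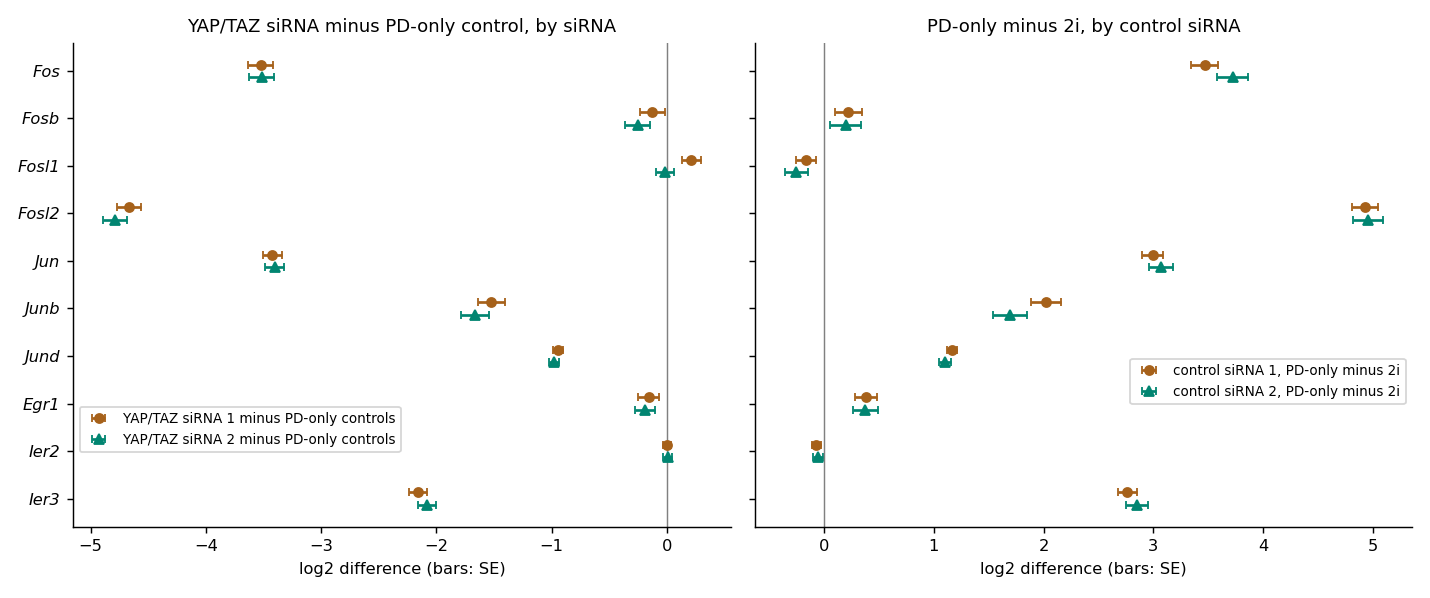
Log2 differences of the 10 genes for each siRNA apart: left, each YAP/TAZ siRNA minus the PD-only controls; right, PD-only minus 2i for each control siRNA, with SE bars. For Fosl2 the YAP/TAZ siRNAs sit at -4.67 and -4.79.

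Genes of related function were taken from lists chosen by role, with earlier results of these data known. Their counts of called genes, here and in the lists further on, stand beside these shares of all genes. For YAP/TAZ siRNA against PD-only control, 26.3% were called lower and 35.5% higher, with 4.47% lower by at least 2-fold. For PD-only control against 2i control, 31.3% were called lower and 26.7% higher, with 4.12% higher by at least 2-fold. For YAP/TAZ siRNA against 2i control, 22.8% were called lower and 25.5% higher. Among 15 measured AP-1 partners (ATF, BATF, JDP and Maf genes), 8 were lower and 2 higher with YAP/TAZ siRNA than in PD-only control cells, and 5 were lower and 6 higher in PD-only control than in 2i control cells. The list's median was -0.30 and -0.06, against 0.06 and -0.04 for all genes. Atf3, a stress-induced repressor, averaged 5.35 ± 0.23 with YAP/TAZ siRNA, 7.93 ± 0.17 in PD-only control and 6.02 ± 0.03 in 2i control cells (SD, n = 8, 7 and 7). Its differences were -2.58 ± 0.08 against PD-only control and, for PD-only control against 2i control, 1.91 ± 0.09 (limma's adjusted p 2.85e-16 and 9.02e-14). Jdp2, a dimerisation partner that represses AP-1, differed by -2.41 ± 0.04 and 0.97 ± 0.04 in the same comparisons, and Atf5 differed by -1.60 ± 0.04 in the first. Unlike Fos, these partners fell below the 2i control level. The YAP/TAZ siRNA minus 2i control difference was -2.02 ± 0.04 for Atf5, -1.43 ± 0.04 for Jdp2, -0.67 ± 0.08 for Atf3 and -0.66 ± 0.03 for Atf4, all called. Jun was also called lower in that comparison, by -0.38 ± 0.07, on its chosen probe set alone. Atf6 was lower with YAP/TAZ siRNA than in PD-only control cells (-0.83 ± 0.04), and the small Maf genes Maff and Mafk were higher in PD-only control than in 2i control cells (0.61 and 0.59, each ± 0.06).

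Of 45 other immediate early genes, 26 were lower and 12 higher with YAP/TAZ siRNA than in PD-only control cells, 12 of them lower by at least 2-fold. In PD-only control against 2i control cells 32 were higher and 7 lower, 15 of them higher by at least 2-fold. The medians were -0.20 and 0.36. Ccn1 and Ccn2, secreted matrix proteins that are textbook YAP/TAZ-TEAD targets, differed by -4.57 ± 0.05 and -2.95 ± 0.03 for YAP/TAZ siRNA against PD-only control, and by 4.10 ± 0.05 and 2.89 ± 0.03 for PD-only control against 2i control. Gadd45g, a growth arrest and stress gene, differed by -3.73 ± 0.11 and 4.46 ± 0.12, and Klf6, a zinc finger factor, by -2.86 ± 0.05 in the first comparison. Id1, an inhibitor of basic helix-loop-helix factors and a BMP target, was 4.86 ± 0.06 higher in PD-only control than in 2i control cells and still 3.0 ± 0.06 higher with YAP/TAZ siRNA than in 2i control cells. Cebpd (1.23), Gadd45b (0.92) and Plk3 (0.84) were also higher with YAP/TAZ siRNA than in 2i control cells. In that comparison 22 of the 45 were higher and 11 lower.

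Upstream of the immediate early genes, 12 of 23 measured MAP kinase cascade genes were lower and 7 higher with YAP/TAZ siRNA than in PD-only control cells, and 5 were lower and 14 higher in PD-only control than in 2i control cells. The medians of the MAP kinase list were -0.12 and 0.13. Mapk12, which encodes the kinase p38 gamma, differed by -2.38 ± 0.05 and 2.58 ± 0.06, more than any other listed gene in both comparisons. Further genes of the MAP kinase list that differed were Rps6ka3 (-1.08 and 0.95), Braf (-1.02 and 0.87) and Mapk11 (-0.83 and 1.24). Against 2i control, YAP/TAZ siRNA cells had less Map2k6 (-0.42) and Map2k5 (-0.38) and more Mapk11 (0.41) and Map2k1 (0.30), which encodes MEK1, a target of PD0325901. Transcript levels do not measure kinase activity.

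Of 13 genes for SRF, ternary complex factors and cofactors, 9 were lower and 3 higher with YAP/TAZ siRNA than in PD-only control cells, and 1 was lower and 7 higher in PD-only control than in 2i control cells (medians -0.25 and 0.11). Srf, which binds the promoters of Fos and Egr1 and is also in the list of other immediate early genes, differed by -0.96 ± 0.04 and 0.88 ± 0.04 (limma's adjusted p 6.56e-15 and 5.97e-14). Nab1, a corepressor of Egr proteins, differed by -1.69 ± 0.04 and 1.23 ± 0.04, Myocd by -1.09 ± 0.07 and 1.25 ± 0.07, and the ternary complex factor Elk3 by -1.12 ± 0.07 in the first comparison. Nab2 was 0.45 ± 0.09 higher in PD-only control than in 2i control cells. Against 2i control, YAP/TAZ siRNA cells were lower for Elk3 (-1.13), Nab1 (-0.46) and Creb1 (-0.42) and higher for Cops5 (0.39), which encodes a coactivator of Jun.

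Among 28 measured genes known as AP-1 targets in other cells, 13 were lower and 6 higher with YAP/TAZ siRNA than in PD-only control cells, and 4 were lower and 15 higher in PD-only control than in 2i control cells (medians -0.11 and 0.18). Ptgs2, which encodes cyclooxygenase 2, averaged 3.96 ± 0.29 with YAP/TAZ siRNA (SD, n = 8). It differed by -5.79 ± 0.10 against PD-only control cells and by 4.71 ± 0.10 between PD-only and 2i control (limma's adjusted p 6.72e-21 and 3.57e-19). Its mean with YAP/TAZ siRNA lies below the lower quartile of gene means of 4.62, so differences from that arm are not measured folds of the transcript. Plaur, the urokinase receptor gene, differed by -2.55 ± 0.06 and 2.95 ± 0.06. Vim (1.61) and Vegfa (1.14) were higher in PD-only control than in 2i control cells. Nqo1, an antioxidant enzyme gene, was on the other side: it was higher with YAP/TAZ siRNA than in PD-only control (1.79 ± 0.04) and 2i control cells (1.17 ± 0.04), and Cd44 was lower (-1.57 ± 0.13 and -0.44 ± 0.13). Cd44 was below the same quartile in YAP/TAZ siRNA and 2i control cells, with means of 3.59 and 4.05. Against 2i control, YAP/TAZ siRNA cells also had less Ptgs2 (-1.08) and more Vim (0.96). In each of the first 2 comparisons 9 of the 28 genes were not called, where 61.8% and 58% of all genes were called.

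Genes that feed back on ERK did not move as 1 group. Of 13 measured, 4 were lower and 8 higher with YAP/TAZ siRNA than in PD-only control cells, and 7 were lower and 4 higher in PD-only control than in 2i control cells (medians 0.18 and -0.18). Phlda1 differed by -2.45 ± 0.06 and 2.47 ± 0.06, and Dusp5, a nuclear ERK phosphatase gene, by -1.51 ± 0.04 and 1.92 ± 0.04. Il17rd, an inhibitor of FGF signalling, went the other way, by 1.43 ± 0.03 and -1.75 ± 0.03. Spry1 was lower with YAP/TAZ siRNA than in PD-only control cells (-0.60 ± 0.05), and Dusp6, a cytoplasmic ERK phosphatase gene, was higher in PD-only control than in 2i control cells (0.75 ± 0.03). In YAP/TAZ siRNA against 2i control cells, Dusp5 (0.41) and Dusp6 (0.31) were higher and Il17rd (-0.32) and Spry1 (-0.21) lower.

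**Figure D4:**
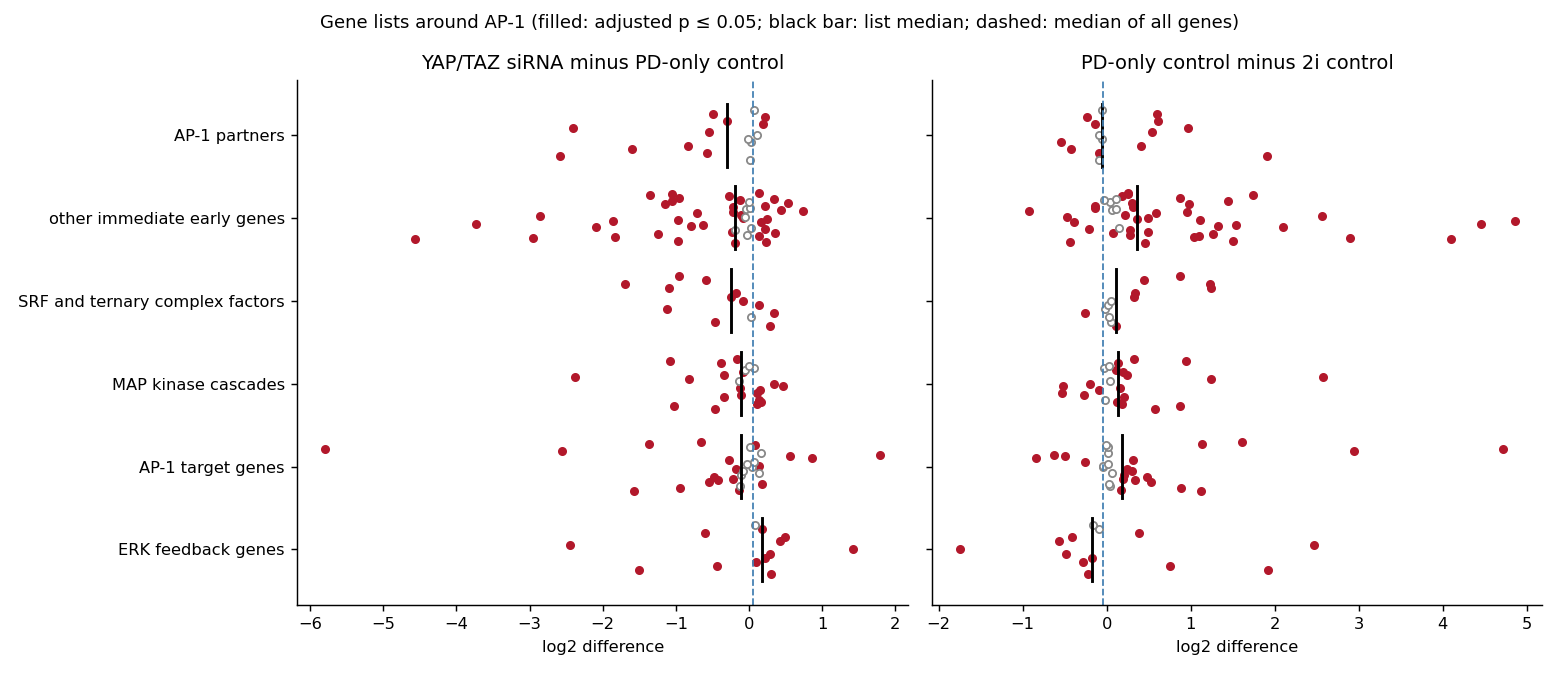
Log2 difference (horizontal axis) of each measured gene in the 6 lists around AP-1, for YAP/TAZ siRNA minus PD-only control (left) and PD-only control minus 2i control (right). Filled points were called at an adjusted p of 0.05, black bars are list medians and the dashed line is the median of all genes; the median of other immediate early genes sits at -0.20 on the left and 0.36 on the right.

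Other measures moved with the same arms, and their part in the results above was not tested. Of 12 fibroblast (feeder) markers, 8 were lower and 0 higher with YAP/TAZ siRNA than in PD-only control cells, and 10 were higher and 0 lower in PD-only control than in 2i control cells. The mean log2 level over these 12 markers was 4.95 to 5.10 on the YAP/TAZ siRNA arrays, 6.53 to 6.65 on the PD-only control arrays and 4.84 to 5.02 on the 2i control arrays. Col1a2 differed by -4.50 ± 0.08 and 4.56 ± 0.08, Col1a1 by -3.95 ± 0.08 and 4.01 ± 0.09, Postn by -3.02 ± 0.05 and 3.17 ± 0.06 and Col5a1 by -1.95 ± 0.04 and 1.88 ± 0.04. Of 12 trophoblast markers, 8 were lower and 2 higher with YAP/TAZ siRNA than in PD-only control cells, and 2 were lower and 8 higher in PD-only control than in 2i control cells; the mean level was 6.59 to 6.69, 8.17 to 8.24 and 6.32 to 6.40 on the YAP/TAZ siRNA, PD-only control and 2i control arrays. Of 14 primitive endoderm markers, 7 were lower and 3 higher, and 3 were lower and 8 higher, in the same comparisons, with mean levels of 6.09 to 6.22, 7.26 to 7.32 and 6.18 to 6.27. Of 12 ES cell markers, 1 was lower and 8 higher with YAP/TAZ siRNA than in PD-only control cells, and 11 were lower and 1 higher in PD-only control than in 2i control cells. RMA values have no 0, so absence of a marker could not be read.

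Heat shock genes and a measure of RNA quality were also compared. Of 11 heat shock genes, 4 were lower and 7 higher with YAP/TAZ siRNA than in PD-only control cells, and 3 were lower and 5 higher in PD-only control than in 2i control cells. Hspa1b, an inducible chaperone gene, differed by -0.95 ± 0.05 and 2.14 ± 0.06 and Hspa1a by -0.88 ± 0.08 and 1.16 ± 0.08, while Bag3 differed by 0.62 ± 0.03 and -0.61 ± 0.03 and Hspb1 by -0.35 ± 0.04 and 0.20 ± 0.04. The log2 level of the 3′ control probe set for Actb minus that of the 5′ one, which grows with RNA degradation or shorter cRNA, was 0.98 ± 0.06 on the YAP/TAZ siRNA arrays, 0.72 ± 0.04 on the PD-only control arrays and 0.97 ± 0.10 on the 2i control arrays (SD, n = 8, 7 and 7). The PD-only control arrays, at 0.66 to 0.75, did not overlap the others. With this measure as a covariate, Fos, Fosl2, Jun, Junb, Jund and Ier3 stayed called in both comparisons, with log2 differences of -4.92 (Fosl2) to -0.99 (Jund) for YAP/TAZ siRNA against PD-only control, and of 1.16 (Jund) to 5.13 (Fosl2) for PD-only control against 2i control.

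The genes whose level followed each of these 6 most closely over the 22 arrays were sought among genes of at least median brightness. For Fos they were Sparc, Rhou and Krt18 (Pearson r 0.995 to 0.997), and for Fosl2 Pxdn, Pmp22 and Myh10 (0.997). For Jun they were Ssbp3, Ptpn14 and Tgfb2 (0.996 to 0.997), for Junb Ccdc120, Mapk6 and Efnb2 (0.978 to 0.989), for Jund Pclaf, Rdh10 and Tpm2 (0.994 to 0.995), and for Ier3 Plekha1, Mael and Dpysl2 (0.996 to 0.997). All arrays share the 3 arms, so any gene that stands high in PD-only control cells alone correlates in this way. These correlations are a description of likeness and carry no test. The likeness of pattern went with unlike sizes: for YAP/TAZ siRNA against PD-only control, Krt18 differed by -5.65 and Sparc by -2.12, where Fos differed by -3.52.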

How the data were processed

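Total RNA of 22 ES cell samples was hybridised as biotin-labelled cRNA, from a 3′ IVT kit, to Affymetrix arrays, 1 per sample, per the labels' protocols. The deposited values are log2 expression per probe set, made by the authors with RMA per the submitters' processing notes; its version is not given in the sources used here. They lie between 2.09 and 14.91. RMA evens out the arrays' distributions, which hides any change of total RNA per cell, and the number of arrays limits the precision. Scan dates were not used here, so how array batches fall over the arms is not known. A batch effect could therefore not be told apart from a difference between arms.

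Of 45101 probe sets, 34945 have 1 gene symbol in the platform annotation, 932 have several and 9224 have none listed, 64 control probe sets among them; the last 2 kinds were left out. A gene took its probe set with the highest mean; 9010 of 18193 genes had several. limma 3.58.1 (R 4.3.3) fitted 1 mean per combination of siRNA and medium, 6 in all, with 16 residual degrees of freedom and 3.1 from the eBayes prior, and p-values were adjusted over all genes. The fit was tested on simulated data. Errors of differences are SE, and errors of arm means are SDs.

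The members and lists were chosen with earlier results of these data known. Named were all 10 members, Yap1 and Wwtr1, up to 4 called genes per list and comparison with the largest difference, and for members with a log2 difference of at least 1 the 3 genes with the highest Pearson r. Promoter sequences come from RefSeq tables. Over all genes, replicate letters showed no pairing of samples. Deviations from group means correlated at a median of 0.0019 for 51 pairs of arrays with the same letter and -0.0020 for 150 with different letters. A pairing limited to some genes would not show in these medians, so a fit with a replicate block is given further on. Alternatives covered the probe set rule, probe sets that may cross-hybridise, dim genes, a further normalization, array weights, another variance model, fits on 2 arms, pooled or blocked siRNAs (statmod 1.5.0), the Actb covariate, a stricter call, each siRNA number alone, the replicate block and fits without 1 array; testing every probe set as its own feature was chosen after seeing the data. Figures used matplotlib 3.10.9 and pandas 2.3.3 in Python 3.11.15.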

Additional observations from a re-analysis of the deposited data

Results flagged for a closer look

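In 40 tests of a group of 4 arrays for a lone extreme value, 2 stood apart, where chance gives about 1 in 20. Replicate A of siYAP/TAZ#2 had a Fos log2 level of 5.57, below the 6.02 to 6.11 of the other 3 arrays of that group. Replicate B of siYAP/TAZ#1 had an Ier2 log2 level of 10.27, below the 10.38 to 10.40 of the other 3. Leaving out any 1 of the 22 arrays kept the Fos difference between YAP/TAZ siRNA and PD-only control within -3.56 to -3.46 and that of Ier2 within -0.01 to 0.02.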

How the results depend on the processing

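No called difference of a member, on the probe set chosen for it or the mean of its probe sets, turned its direction under 14 alternatives or 22 fits without 1 array each. Tested as features of their own, the second Jund probe set went the opposite way in both comparisons with PD-only control and the second Fosl1 probe set did for PD-only control against 2i control, with the values given above. The calls of Fos, Fosl2, Jun, Junb, Jund and Ier3 held for YAP/TAZ siRNA against PD-only control and for PD-only control against 2i control in every fit that tested them on those values. The number of genes called stayed within 1.5 times in the fits not limited by level. It was 8204 to 11840, 6453 to 9251 and 7796 to 11129 for YAP/TAZ siRNA against PD-only control, YAP/TAZ siRNA against 2i control and PD-only control against 2i control. The fit limited to genes at or above the median level called 7658, 6982 and 7420 of 9097 genes. With the test limited to genes at or above the median level of 6.64, 5 members were tested (Fosb, Fosl1, Fosl2, Junb and Egr1 are below it). Of them, 4, 3 and 5 were called in those comparisons, where 84.2%, 76.8% and 81.6% of all genes tested were. Fos, Jun and Ier3 pass this limit through the PD-only control arrays, where they are high. Their means were 5.94, 5.43 and 6.64 on the YAP/TAZ siRNA arrays and 5.88, 5.82 and 5.96 on the 2i control arrays. Their calls in this fit are therefore no separate check. For YAP/TAZ siRNA against 2i control, 3 of 10 members were called with the siRNAs numbered 2 alone (35.5% of all genes) and 3 at an adjusted p of 0.01 (40.7%). Without 1 array, the called members numbered 6 to 7, 3 to 6 and 8 to 9. With the replicate block, 7, 6 and 8 members and 11261, 8714 and 10542 genes were called, Fosl2 being added for YAP/TAZ siRNA against 2i control (limma's adjusted p 0.00971).

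Calls near the threshold moved. For YAP/TAZ siRNA against 2i control, Egr1 was lost without 2i control arrays of siControl#1 (B) or siControl#2 (A and C) or arrays of siYAP/TAZ#1 (C and D), at an adjusted p of 0.0529 to 0.0642. Junb was lost there without 2i control arrays of siControl#1 (C and D) or siControl#2 (B and C), or arrays of siYAP/TAZ#1 (A and C) or siYAP/TAZ#2 (A, C and D), at 0.0505 to 0.108, and was 0.07 (0.801) with the siRNAs numbered 2 alone. Fosl2 gained a call there without 2i control arrays of siControl#1 (B) or siControl#2 (C), PD-only control arrays of siControl#1 (A and C), or arrays of siYAP/TAZ#1 (B) or siYAP/TAZ#2 (B and D), at 0.0271 to 0.0457. Egr1 for YAP/TAZ siRNA against PD-only control had an adjusted p of 0.302 with the Actb covariate, and Fosl1 for PD-only control against 2i control had 0.720. Fosl2 also gained that call in 7 of 14 alternatives, the replicate block among them, at 0.00971 to 0.0441. Ier2 gained one for PD-only control against 2i control in 3 alternatives (genes at or above the median level, the intensity trend with a robust prior, and the siRNA group as a random block), at 0.0371 to 0.0477. Fosb gained a call for YAP/TAZ siRNA against PD-only control without replicate B of siYAP/TAZ#1 or of siYAP/TAZ#2 (0.00702 and 0.0467), and for PD-only control against 2i control without the 2i array D of siControl#1 or siYAP/TAZ#1 arrays B and D (0.0253 to 0.0479). It gained both calls with the further normalization, the intensity trend with a robust prior, and the siRNA group as a random block (limma's adjusted p 0.0274 to 0.0472). The fit on the 2 arms compared added the call for PD-only control against 2i control (0.0138). The cause of these moves was not tested. Differences against dim values are compressed by background, which bears on Fosb, Fosl1 and Egr1 in all arms and on Fosl2 and Junb in YAP/TAZ siRNA and 2i control cells.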
